A study of Mus musculus with 6 samples.

Results

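MicroRNAs of the miR-130 and miR-301 family share a seed, the short stretch near the 5′ end of the mature strand through which a microRNA pairs with messenger RNAs. Pairing usually lies in the 3′ UTR, the untranslated end of the message, and the silencing complex then blocks translation and shortens the life of the transcript. Loss of a microRNA can therefore raise the messages it held down, although related microRNAs with the same seed may still act on them. The genes described here are 9 genes linked to control of growth that had been put forward as targets of this family: Tsc1, Cyld, Tp53inp1, Met, Nlk, Atxn1, Zeb1, Ddx6 and Hprt. They were chosen by name from the 13254 genes of the authors' table. Of the 9, 7 stood in the table under those symbols, and 2 under other symbols of the same gene: Tp53inp1 as Trp53inp1, its mouse spelling, and Hprt as Hprt1, matched by its Ensembl identifier. The mouse symbols of the table are used below.

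RNA sequencing measured the transcripts of bone marrow derived macrophages (BMDMs), which are grown in culture from marrow precursors. The KO group held 3 samples from mice lacking the miR-130b/301b cluster, and the WT group 3 samples from wild-type mice, with no treatment, age or sex stated in the labels for either. The comparison asks whether any of the 9 transcripts was higher in KO BMDMs than in WT BMDMs. Values are the authors' CPM, a level per gene relative to the size of its library, with any further scaling between libraries not given in the sources used here. Whether replicates are different mice is not stated, so the p-values cover only the scatter of these 6 samples, possibly a technical one.

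The labels were checked against the transcript that carries the deleted microRNAs, 2610318N02Rik, which was listed at 0 CPM in each KO sample and had 1.63, 2.43 and 2.07 CPM in the WT samples. All 8 macrophage markers examined were expressed in every sample, with a summed level of 19600 to 20400 CPM in KO and 18000 to 18600 CPM in WT. Most of that sum was Lyz2, with a mean of 12160 CPM in KO and 10510 CPM in WT. Of the rest, Adgre1, Csf1r, Fcgr1 and Cd14 had higher means in KO, and Cd68, Itgam and Mertk lower ones. The test covered 11556 genes that reached 1 CPM in 3 or more samples, of which 56 were higher and 91 lower in KO (limma, Benjamini-Hochberg (BH) adjusted p under 0.05), 1.27% in all. With single libraries left out, higher genes numbered 29 (KO replicate 1), 30 (WT replicate 2) and 32 (WT replicate 3), and lower genes 34, 28 and 23 with the same ones left out and 163 with WT replicate 1 left out.

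The deleted microRNA miR-130b-3p and its relatives are shown because their common seed, bases 2 to 8 from the 5′ end, is what a target must match. The sequences are those of RefSeq on GRCm38.p6, with the seed in capitals.
miR-130b-3p: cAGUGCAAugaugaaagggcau
miR-130a-3p: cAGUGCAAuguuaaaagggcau
miR-301a-3p: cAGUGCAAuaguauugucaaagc
The same seed was found in 7 mature mouse microRNAs of that collection, miR-130c, miR-721, miR-6341 and miR-6389 being the others. Mir130b lies on chromosome 16, Mir130a on chromosome 2 and miR-301a on chromosome 11, so that these relatives are encoded away from the deleted cluster. The mature strand of miR-301b-3p is named only. Levels of the mature microRNAs were not analysed here.

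A match to this seed in a messenger RNA reads TTGCACT, searched on the transcript strand alone in the longest 3′ UTR that GENCODE M21 (GRCm38) annotates for each gene. Of the 9 genes, 6 held at least 1 match: Tsc1, Cyld and Ddx6 held 2 each, and Atxn1, Trp53inp1 and Hprt1 held 1 each. Met, Nlk and Zeb1 held none in any annotated 3′ UTR, although each held the shorter match to bases 2 to 7, TGCACT, at least once. Over all 10691 tested genes with an annotated 3′ UTR, 11.9% held TTGCACT and 34.6% held TGCACT. The 3′ UTRs of the 6 genes, in the order named, had 3994, 4932, 4250, 7300, 4420 and 545 bases. The median was 2474 bases in tested genes with TTGCACT and 1069 in those without. Length was not taken into account, and the 9 genes had been put forward as targets, so these shares are no test. A match is a description of the letters and does not show binding.

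The matched windows are shown for the 6 genes, 29 bases of the transcript each, with the match in capitals and, where it is followed by A, that A also in capitals. Such an A, opposite the first base of the microRNA, is a known feature of strong sites. Coordinates are on GRCm38, which differs from the GRCm39 build named in the submitters' processing notes.
Tsc1, first match, chr2:28690114-28690142, plus strand: tgggcattgcacaggctcagtTTGCACTg
Tsc1, other match, chr2:28690722-28690750, plus strand: ggcaggcaggcaggcgtttttTTGCACTA
Cyld, first match, chr8:88747179-88747207, plus strand: aagtatttaataagaagcattTTGCACTc
Cyld, other match, chr8:88749072-88749100, plus strand: ctaagcaagatcgtctcgaaaTTGCACTg
Atxn1, chr13:45550040-45550068, minus strand: ttccagtgtaaaatgttgtatTTGCACTA
Ddx6, first match, chr9:44636660-44636688, plus strand: gaccttttttgttccacttgtTTGCACTg
Ddx6, other match, chr9:44636687-44636715, plus strand: tgtgtgctgactgaacattcgTTGCACTA
Trp53inp1, chr4:11174304-11174332, plus strand: taatgggttcagtagtgcattTTGCACTg
Hprt1, chrX:53021269-53021297, plus strand: ctgcgtccccagacttttgatTTGCACTA
The matches of Ddx6 began at bases 200 and 227 of a 3′ UTR of 4250 bases, close to the stop codon and to each other. That of Trp53inp1 began at base 4366 of 4420 and that of Atxn1 at base 7008 of 7300, both near the end of the transcript. Hprt1 had the shortest 3′ UTR of the 9 genes, with 545 bases and its match at base 176.

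None of the 9 transcripts passed the test as higher in KO BMDMs. By limma on log2(CPM + 1), 0 of the 9 were higher and 0 lower at a BH-adjusted p under 0.05, where 0.485% and 0.787% of all tested genes were, 1.27% together. At an unadjusted limma p under 0.05, 0 were higher and 1, Zeb1, was lower, where 5.24% of all tested genes were higher and 7.3% lower. The estimated difference was positive for Trp53inp1 and Hprt1 and negative for the other 7. The KO samples lay above all WT samples for 0 of the 9 genes and below them for 2, Met and Zeb1, against 8.55% and 9.1% of all tested genes. Met passed the filter through its 3 WT samples alone, so its separation was fixed by the filter and is no support for a difference. An exact two-sided permutation test of KO against WT cannot go below p = 0.1 with 3 samples a group, a value that only Met and Zeb1 reached among the 9. For Met this too follows from the filter.

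**Figure D1:**
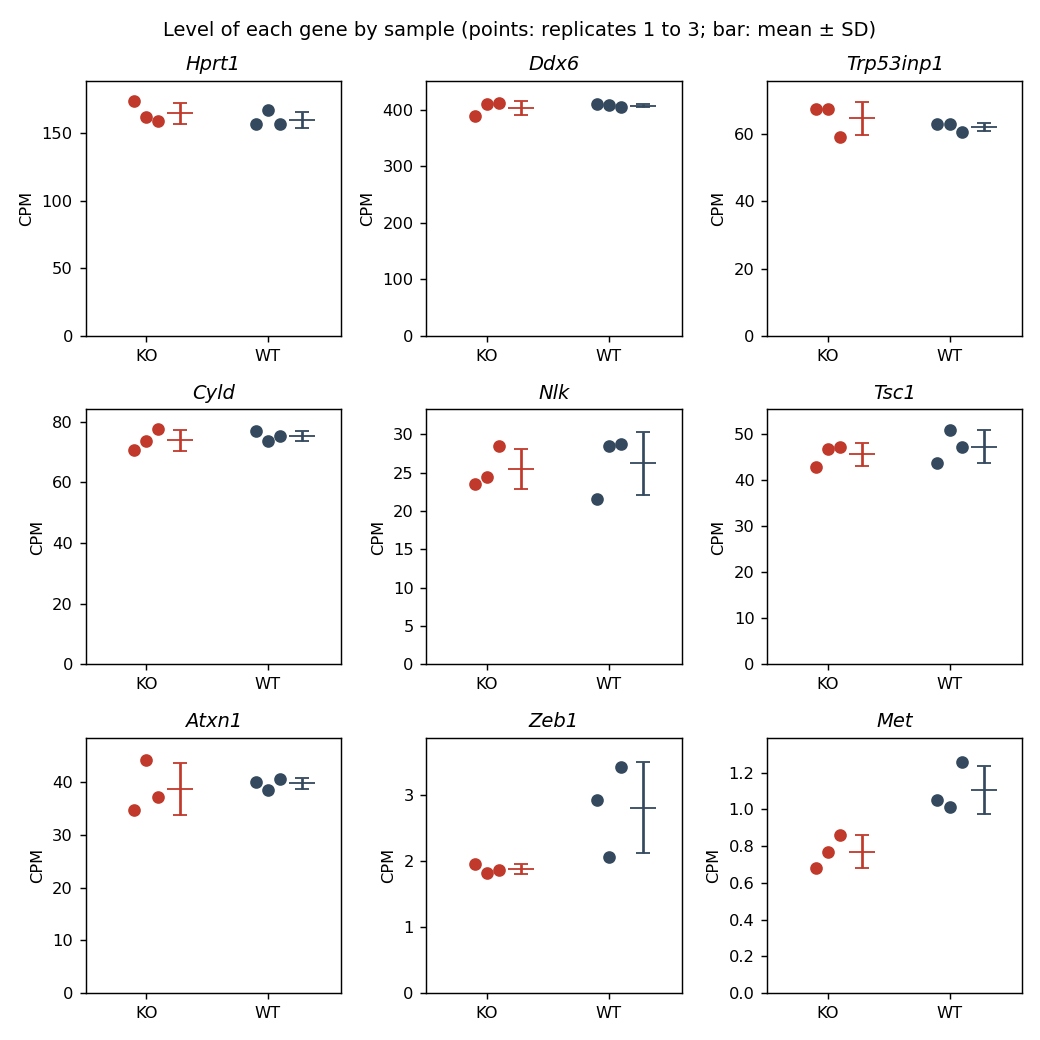
CPM of the 9 genes in each sample, with KO left of WT in every panel, points for replicates 1 to 3 and bars for the mean ± SD (n = 3), and panels ordered by level per kilobase. The KO and WT points overlap in 7 panels, while in the panels of Zeb1 and Met every KO point lies below every WT point.

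The transcripts differed widely in level, and the order of their means was the same in KO and WT. Per kilobase of merged exons in GENCODE M21, and over all 6 samples, Hprt1 stood highest, between 122 and 135 CPM per kb. Ddx6 followed with 48.3 to 51.2 CPM per kb, Trp53inp1 with 9.12 to 10.4 and Cyld with 5.62 to 6.16. Nlk, with 3.95 to 5.27 CPM per kb, and Tsc1, with 3.62 to 4.30, were the only neighbours in this order whose samples overlapped. Atxn1 lay between 2.49 and 3.18 CPM per kb. Zeb1, with 0.176 to 0.334 CPM per kb, and Met, with 0.0884 to 0.164, were lowest.

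Tsc1, Cyld and Trp53inp1 are brakes on growth and survival signals. Tsc1 encodes hamartin, which with tuberin holds the growth kinase complex mTORC1 in check, and its transcript had 42.9, 46.8 and 47.3 CPM in the KO samples, given here and below in the order of replicates 1, 2 and 3, and 43.8, 50.9 and 47.3 CPM in the WT samples. The groups overlapped, with the lowest samples being replicate 1 of each (log2 difference -0.0495, 95% interval -0.196 to 0.0966, limma, BH-adjusted p = 0.810). Without WT replicate 2, its highest sample, the estimate was 0.00313.

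Cyld encodes a deubiquitinase that restrains NF-kappaB signalling. It stood at 70.6, 73.7 and 77.5 CPM in KO and at 76.9, 73.5 and 75.3 CPM in WT. The WT samples lay inside the span of the KO samples (log2 difference -0.0259, 95% interval -0.127 to 0.0750, limma, BH-adjusted p = 0.866), and the estimate was 0.00606 without KO replicate 1.

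Trp53inp1 encodes a p53-induced nuclear protein that promotes cell death and autophagy. Its level was 67.6, 67.5 and 59.0 CPM in KO and 62.9, 62.9 and 60.6 CPM in WT, so that KO replicates 1 and 2 were above and KO replicate 3 below every WT sample. With all 6 samples it had the largest positive estimate of the 9 genes, a log2 difference of 0.0554 (95% interval -0.0752 to 0.186, limma, BH-adjusted p = 0.756), which corresponds to a ratio of 1.04. The estimate was 0.0227 without KO replicate 1, 0.0239 without KO replicate 2 and 0.119 without KO replicate 3, and it did not pass the test in any of these (limma, BH-adjusted p = 0.935, 0.928 and 0.314).

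Met and Nlk encode signalling kinases. Met, the receptor of hepatocyte growth factor, lay close to the filter on low values, at 0.679, 0.766 and 0.860 CPM in KO and 1.05, 1.01 and 1.26 CPM in WT. Every KO sample was under every WT sample, and the mean in KO was 30.5% lower. The difference did not pass the test (log2 difference -0.252, 95% interval -0.528 to 0.0245, limma, BH-adjusted p = 0.449). Met entered the test because its 3 WT samples reached 1 CPM, which 0 of the KO samples did, so its place among the tested genes rests on the group where it was higher. Having entered in that way, its KO samples could only lie below its WT samples.

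Nlk, the Nemo-like kinase that acts on Wnt and FOXO transcription factors, stood at 23.6, 24.4 and 28.5 CPM in KO and at 21.5, 28.5 and 28.7 CPM in WT. The single lowest sample was WT replicate 1, and the groups overlapped over nearly their whole span (log2 difference -0.0334, 95% interval -0.296 to 0.230, limma, BH-adjusted p = 0.940). Its estimate turned positive when KO replicate 1 was left out (0.0184), as it did when WT replicate 2 (0.0305) or WT replicate 3 (0.0344) was.

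Atxn1 and Zeb1 encode transcriptional regulators. Atxn1, whose product ataxin-1 forms a repressor complex with Capicua, stood at 34.7, 44.3 and 37.1 CPM in KO and at 40.1, 38.6 and 40.7 CPM in WT. The KO samples spread to both sides of the WT samples, with a coefficient of variation of 12.9% in KO and 2.75% in WT (log2 difference -0.0456, 95% interval -0.233 to 0.142, limma, BH-adjusted p = 0.875). Without KO replicate 1 the estimate was 0.0275.

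Zeb1, a zinc-finger repressor known for driving epithelial cells towards a mesenchymal state, lies on chromosome 18 and was the gene of the 9 farthest from equal levels. It stood at 1.96, 1.81 and 1.87 CPM in KO and at 2.92, 2.07 and 3.43 CPM in WT, every KO sample being below every WT sample. The KO samples lay close together, with a coefficient of variation of 3.90%, and the WT samples apart, with 24.5%. The mean in KO was 33.1% lower (log2 difference -0.388, 95% interval -0.714 to -0.0615), and the difference did not pass the test over all genes (limma, BH-adjusted p = 0.307). With a pseudocount of 5 CPM in place of 1, the log2 difference was -0.179 for Zeb1 and -0.0820 for Met.

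Transcripts of stromal cells, which are known to express Zeb1, were also at lower levels in KO. Of 8 fibroblast and stromal markers, 7 were analysed, and their summed level was 13.4, 4.91 and 33.1 CPM in KO and 53.6, 47.1 and 51.9 CPM in WT, KO being below WT throughout. Of the 5 that were tested 2 were lower, Col3a1 and Postn (limma, BH-adjusted p = 0.0133 and 0.0482). Over all tested genes, 0.787% were lower by the same threshold. Both genes reached 1 CPM in every WT sample but not in every KO sample. They therefore met the filter through the group where they were higher, and their calls are not taken as support for a difference. The collagen gene Col3a1 averaged 0.881 CPM in KO and 6.09 CPM in WT, and the defining marker Pdgfra 0.272 CPM in KO and 0.798 CPM in WT. None of the 7 was at 0 in any sample. The part of these cells in the lower Zeb1 was not tested, and in bulk RNA fewer cells of a type and less RNA per cell cannot be told apart. KO replicate 3 had the highest stromal sum of the KO samples and a Zeb1 level between those of the other KO samples. KO replicate 2 had both the lowest stromal sum and the lowest Zeb1 level of the KO samples. The same held for WT replicate 2 among the WT samples. No epithelial marker was analysed. The 3 endothelial markers analysed summed to 5.07 to 6.34 CPM in KO and 5.05 to 6.43 CPM in WT, and the 3 dendritic cell markers to 1.38 to 1.63 CPM in KO and 1.96 to 2.35 CPM in WT. The sums overlapped between the groups for neutrophils (89.4 to 117 CPM in KO and 104 to 118 CPM in WT, with Mpo the 1 marker of 6 that was lower, limma, BH-adjusted p = 0.0219), erythroid cells and megakaryocytes (60.7 to 88.3 CPM in KO and 74.2 to 86.3 CPM in WT), B and plasma cells (6.73 to 7.27 CPM in KO and 6.54 to 7.22 CPM in WT) and T and NK cells, for which only Cd4 was analysed (15.2 to 19.2 CPM in KO and 15.7 to 16.2 CPM in WT). The B and plasma cell sum was mostly Cd79b, with a mean of 5.45 CPM in KO and 4.47 CPM in WT (limma, BH-adjusted p = 0.335). Cd79a, Pax5 and Ms4a1 were too low to be tested, with means of 0.595, 0.534 and 0.434 CPM in KO. In WT their means were 0.975, 0.788 and 0.657 CPM, every KO sample being below every WT sample.

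By likeness of pattern over the 6 samples, the genes with a mean of at least 10 CPM closest to Zeb1 were Mbnl2, Fcgr4 and mt-Co3, with Pearson's r of 0.985, 0.984 and 0.984 on log2(CPM + 1). As many as 56 of 8246 genes had an r above 0.9 to Zeb1, and all were measured in the same 6 libraries. Mbnl2 stood at 120 ± 1.51 CPM (mean ± SD, n = 3 here and below) in KO and 128 ± 4.79 CPM in WT, Fcgr4 at 62.0 ± 0.879 CPM in KO and 74.1 ± 8.27 CPM in WT, and the mitochondrial transcript mt-Co3 at 880.3 ± 30.9 CPM in KO and 1154 ± 159 CPM in WT. None of the 3 passed the test (limma, BH-adjusted p = 0.409, 0.201 and 0.109), and mt-Co3 passed it without WT replicate 2 (adjusted p = 0.00353).

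Ddx6 and Hprt1 were the most abundant of the 9 per kilobase. Ddx6 encodes an RNA helicase that works with decapping factors and is itself part of the machinery by which microRNAs silence messages. Its level was 388, 410 and 411 CPM in KO and 409, 408 and 404 CPM in WT, KO replicate 1 being the lowest sample (log2 difference -0.0152, 95% interval -0.0916 to 0.0611, limma, BH-adjusted p = 0.898). The coefficient of variation was 3.20% in KO and 0.617% in WT, and the estimate was 0.0116 without KO replicate 1.

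Hprt1 encodes the purine salvage enzyme hypoxanthine phosphoribosyltransferase and is widely used as a reference transcript for normalization, so that its place among genes of growth control rests on the list alone. It stood at 174, 162 and 159 CPM in KO and at 157, 167 and 157 CPM in WT. KO replicate 1 was above all other samples and the remaining samples overlapped (log2 difference 0.0424, 95% interval -0.0595 to 0.144, limma, BH-adjusted p = 0.761). The estimate was 0.00475 without KO replicate 1 and 0.0688 without KO replicate 3, and 0.0276, 0.0726 and 0.0271 without WT replicates 1, 2 and 3.

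**Figure D2:**
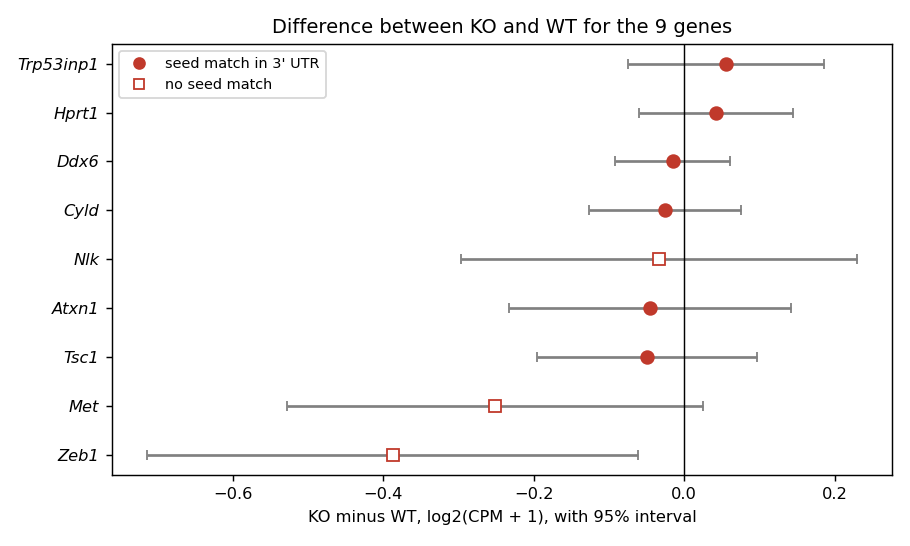
Difference between KO and WT on the log2(CPM + 1) scale for the 9 genes, with points at the estimate and bars for the unadjusted 95% interval of limma. Filled circles mark the 6 genes with a seed match in the 3′ UTR and open squares the 3 without; all intervals but that of Zeb1 include 0.

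The intervals give the size of a rise that these samples would still allow. As a ratio of KO to WT on CPM + 1, the upper end of the unadjusted 95% interval was 1.04 for Ddx6, 1.05 for Cyld, 1.07 for Tsc1, 1.10 for Atxn1, 1.11 for Hprt1, 1.14 for Trp53inp1 and 1.17 for Nlk. For Met it was 1.017 and for Zeb1 0.958, on a scale that understates changes of such low genes. The intervals of the 6 genes with a seed match lay between -0.233 and 0.186, and a test that misses its threshold does not show that the levels were equal.

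Set out by seed match, the 9 genes gave the following values on the log2(CPM + 1) scale. The 6 genes with a match had differences between -0.0495 and 0.0554, with a median of -0.0206. Met, Nlk and Zeb1, without a match, had -0.252, -0.0334 and -0.388. The 4 genes with a match followed by A, Tsc1, Atxn1, Ddx6 and Hprt1, had -0.0495, -0.0456, -0.0152 and 0.0424.

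Over the whole table, more genes with a seed match were lower than higher in KO. Of 1277 tested genes with TTGCACT in the 3′ UTR, 2 were higher and 17 lower in KO (limma, BH-adjusted p under 0.05), with a median log2 difference of -0.0124 and a positive estimate for 44.2%. Of 9414 tested genes whose 3′ UTR lacked it, 46 were higher and 67 lower, with a median of 0.00237 and a positive estimate for 51.1%. The 3′ UTRs with a match were longer, with a median of 2474 bases against 1069, and the part of length was not tested. For the 270 genes with a match followed by A, 0 were higher and 3 lower, and 15 and 34 had an unadjusted limma p under 0.05. The 190 genes with at least 2 matches gave 0 higher and 2 lower, 9 and 24 unadjusted, with a median of -0.0266. Over all tested genes, 0.485% were higher and 0.787% lower by adjusted p, and 5.24% and 7.3% by unadjusted p.

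The 2 genes with a match that were higher, named after their values were seen, were Ppp2r1b, a scaffold subunit of protein phosphatase 2A, and Hpgd, which inactivates prostaglandins. Ppp2r1b stood at 59.5 ± 2.02 CPM in KO and 41.4 ± 1.62 CPM in WT (log2 difference 0.512, limma, BH-adjusted p = 0.00112), and Hpgd at 11.8 ± 0.357 CPM in KO and 8.36 ± 0.719 CPM in WT (0.455, adjusted p = 0.0324). Hpgd lost the call without any of KO replicates 1, 2 and 3 and WT replicates 2 and 3 (limma, BH-adjusted p between 0.0573 and 0.143). Without WT replicate 1, 5 genes with a match were higher and 26 lower, and without WT replicate 3, 1 was higher and 3 lower. Without KO replicate 1 and likewise without WT replicate 2, 1 was higher and 5 lower. Without KO replicate 3, 1 was higher and 14 lower.

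**Figure D3:**
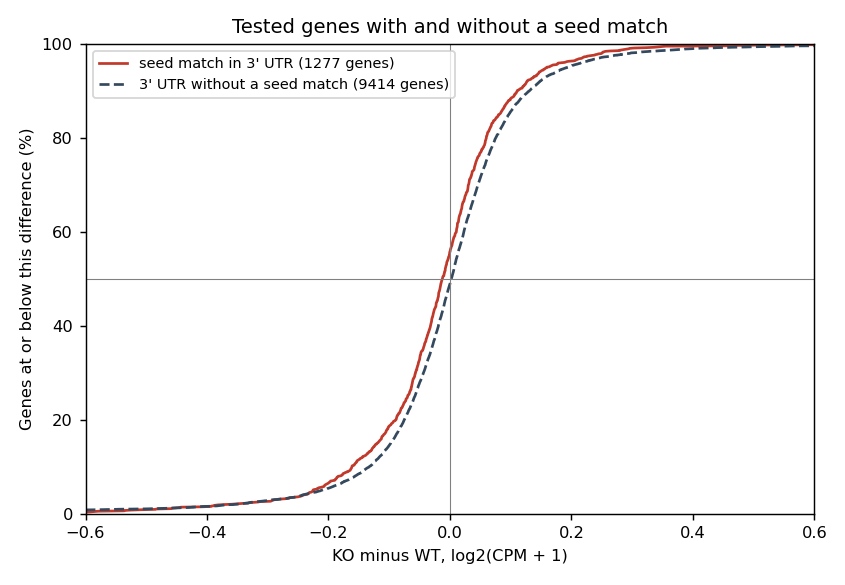
Share of tested genes (y axis, percent) at or below each difference between KO and WT on the log2(CPM + 1) scale (x axis), for the 1277 genes with a seed match in the 3′ UTR and the 9414 without, drawn between -0.6 and 0.6. The curve of genes with a match lies slightly to the left near 0, with medians of -0.0124 and 0.00237.

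Of 19 tested partners of Tsc1 and inputs to mTORC1, 0 rose and 1, Deptor, fell, with a median log2 difference of -0.0204 against -0.000349 over all tested genes. For this list and those below, the shares over all tested genes were 0.485% higher and 0.787% lower in KO. At an unadjusted limma p under 0.05 they were 5.24% and 7.3%. Single calls in such short lists say little about a pathway. Deptor, an inhibitor that binds mTOR and holds a seed match, stood at 37.9 ± 1.00 CPM in KO and 45.2 ± 1.79 CPM in WT (log2 difference -0.250, limma, BH-adjusted p = 0.0476). That call held without WT replicate 1 but was lost without KO replicates 1, 2 or 3 or WT replicates 2 or 3 (adjusted p between 0.101 and 0.212).

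Of 18 tested partners of Cyld and ubiquitin regulators of NF-kappaB, 1 rose and 0 fell, with a median of 0.0183. The gene that rose was Map3k7, which encodes the kinase TAK1 that Cyld restrains and that also activates Nlk. It stood at 77.6 ± 0.611 CPM in KO and 63.0 ± 1.93 CPM in WT (log2 difference 0.298, limma, BH-adjusted p = 0.00905), and its 3′ UTR lacked TTGCACT. The call was lost without WT replicate 3 (adjusted p = 0.0522). Map3k7 was also the 1 of 12 tested Nlk activators and substrates that rose, and 0 of these fell. Of 21 tested partners of Trp53inp1 and p53 targets, 0 rose and 0 fell (2 and 3 at an unadjusted limma p under 0.05). The most abundant, Gabarap and Cdkn1a, stood at 394 ± 13.1 and 261 ± 10.4 CPM in KO and 393 ± 4.32 and 264 ± 13.9 CPM in WT.

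Around Met, 13 ligand, adaptor and related genes were tested, of which 0 rose and 1 fell. That gene was Cbl, a ubiquitin ligase that removes activated receptors, at 272 ± 33.1 CPM in KO and 370 ± 14.1 CPM in WT (log2 difference -0.451, limma, BH-adjusted p = 0.0324), with no seed match. It lost the call without KO replicates 1 or 2 or WT replicates 2 or 3 (adjusted p between 0.0833 and 0.150). Of 12 tested genes of the Atxn1 and Capicua complex and targets of Capicua, 0 rose and 0 fell (1 and 0 unadjusted). Capicua itself, Cic, stood at 312 ± 7.91 CPM in KO and 315 ± 2.06 CPM in WT, and Spred1, a brake on Ras signalling, at 344 ± 12.7 CPM in KO and 332 ± 13.4 CPM in WT.

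Of 17 relatives, corepressors and targets listed for Zeb1, only 7 were tested, of which 0 rose and 0 fell (0 and 1 unadjusted). The 7 were Zeb2, Hdac1, Hdac2, Ctbp1, Ctbp2, Smarca4 and Vim, so these counts leave out most genes listed for Zeb1. Its relative Zeb2, which macrophages express strongly, stood at 647.6 ± 34.4 CPM in KO and 655.8 ± 11.8 CPM in WT (log2 difference -0.0192, limma, BH-adjusted p = 0.899) and holds a seed match. Vim, the mesenchymal filament gene, stood at 1566 ± 22.7 CPM in KO and 1791 ± 124 CPM in WT, every KO sample below every WT sample (-0.192, adjusted p = 0.162), and passed the test without WT replicate 1 (adjusted p = 0.00874).

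Of 19 tested decapping and P-body genes that work with Ddx6, 0 rose and 0 fell (1 and 2 at an unadjusted limma p under 0.05), with a median of -0.00709. Their most abundant members, Cnot1 and Lsm14a, stood at 246 ± 5.36 and 113 ± 3.47 CPM in KO and 238 ± 10.8 and 110 ± 3.63 CPM in WT. Of 15 enzymes of purine salvage and nucleotide turnover, 0 rose and 1 fell, with a median of -0.0575. Ampd3, an AMP deaminase with a seed match, stood at 37.8 ± 0.634 CPM in KO and 46.1 ± 2.68 CPM in WT (log2 difference -0.280, limma, BH-adjusted p = 0.0442). It kept the call without WT replicate 1 and lost it without any other single library (adjusted p between 0.0841 and 0.173).

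**Figure D4:**
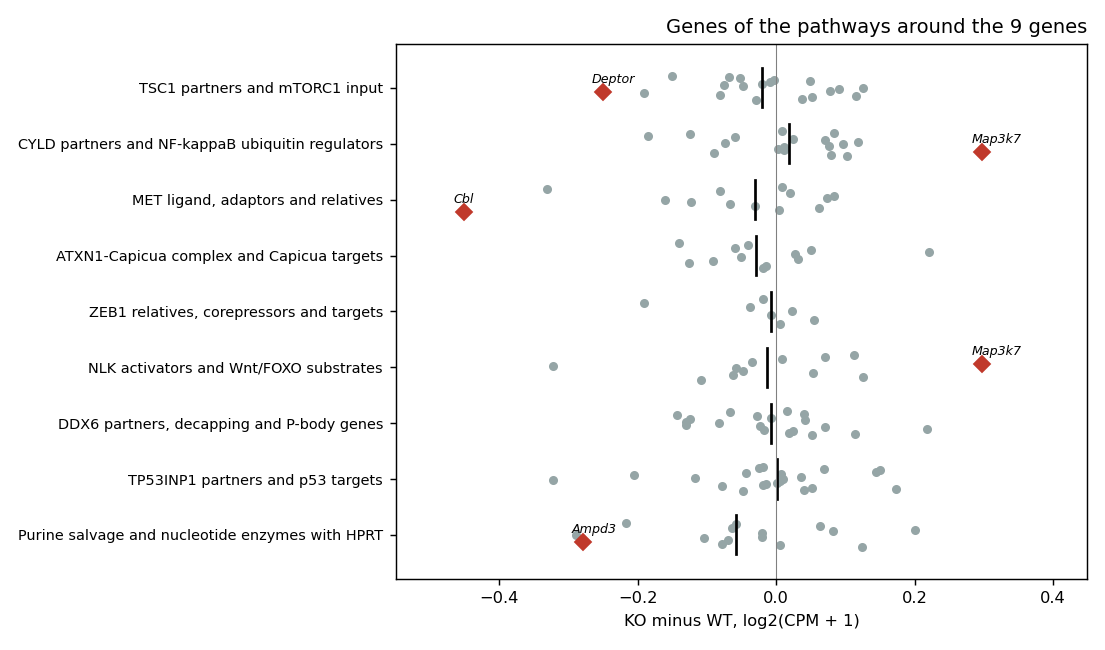
Difference between KO and WT on the log2(CPM + 1) scale for the tested genes of each pathway around the 9 genes (x axis, 1 row per pathway, points for genes, black bars for medians). Diamonds with names mark the 5 entries at a BH-adjusted p under 0.05, of which Map3k7 appears in a pair of rows, and all but Map3k7 lie below 0.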

How the data were processed

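The authors deposited a table of CPM per gene for 6 samples, per the file headers. The submitters' processing notes name the build GRCm39, while alignment, counting, strand and scaling between libraries are not given in the sources used here. Column totals ran from 989223 to 1018258, and those of WT replicates 2 and 3 (1014741 and 1018258) were more than plain CPM can sum to, so at least these had been scaled by more than library size. Of values under 0.4 CPM, only 28.6% to 60% were whole multiples of a step to within 0.1 of it, so read depth is unknown and no counting interval is given. There were 0 identical columns and 0 unused columns of sample values.

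KO was compared with WT by limma 3.58.1 (R 4.3.3) on log2(CPM + 1), two-sided, with a mean-variance trend and BH adjustment over 11556 genes that reached 1 CPM in 3 or more samples (threshold 0.05). The scale understates changes of low genes. The 9 genes, the 11 pathway lists and the 9 marker lists were chosen with earlier results of these data known, and 2 of the pathway lists are not reported here. Genes named from a list are those called, up to 4, or otherwise the 2 with the highest mean. The 3 genes most like Zeb1 were added, and others are said to be chosen after their values were seen. GENCODE M21 held 12676 of the 13254 identifiers, and a 3′ UTR for 92.5% of tested genes. Alternatives were pseudocounts of 0.5 and 5, no filter or a mean of at least 5 CPM, median-of-ratios rescaling, a replicate block and leaving out each sample. Python 3.11.15 searched the sequences.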

Additional observations from a re-analysis of the deposited data

How the results depend on the processing

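Under the 12 alternatives run, 0 of the 9 genes were called higher and 0 lower by limma, and Zeb1 and Met, negative wherever they were tested, were not tested with a mean of at least 5 CPM. The replicate block, in which the shared numbers enter the model, gave 53 higher and 89 lower genes, against 56 and 91. Same-numbered KO and WT samples deviated together with r of 0.000154, 0.0834 and 0.0646. KO replicates 2 and 3 were each closest to the WT sample of their own number, and KO replicate 1 to WT replicate 3 (0.0285). All these values are small, and whether the numbers pair the samples cannot be told from them. With the block Deptor, Ampd3 and Hpgd no longer passed (limma, BH-adjusted p = 0.107, 0.0608 and 0.0534), while mt-Co3 passed (0.0343). Leaving out 1 sample at a time gave 29 to 80 higher and 23 to 163 lower genes, and 1 to 5 higher and 3 to 26 lower genes with a seed match, the alternatives for the last pair, and for every gene named besides the 9, being added after seeing the data. Log2 differences that changed sign when 1 sample was left out, all of genes not past the test, ranged from -0.145 to 0.0275 for Atxn1, -0.0596 to 0.00606 for Cyld, -0.0300 to 0.0116 for Ddx6, -0.165 to 0.0344 for Nlk and -0.103 to 0.00313 for Tsc1. For genes around them they ranged from -0.0621 to 0.0106 for Cdkn1a, -0.0254 to 0.00713 for Cic, -0.0210 to 0.0268 for Gabarap and -0.0419 to 0.0258 for Zeb2. The cause was not tested. A seed match to bases 2 to 7 was held by 9 of the 9 genes, and one to bases 2 to 8 in any annotated 3′ UTR by 6. Over tested genes with a 3′ UTR, the shares were 34.6% and 12.7%. Depth is unknown, and among the 9 genes the estimates of the low Zeb1 and Met moved most with the pseudocount, to -0.179 and -0.0820 with 5 CPM, while over all alternatives they ranged down to -0.535 and -0.340.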
